A study of Mus musculus with 8 samples.

Results

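The enzymes that write, copy and remove DNA methylation were followed across mouse embryonic stem cells (ESCs) that differ in the zinc finger transcription factor gene Zfp281. The group held 8 genes, Dnmt1, Dnmt3a, Dnmt3b, Dnmt3l, Uhrf1, Tet1, Tet2 and Tet3, of 18193 genes measured, and was chosen by name from the platform annotation. It was read by 20 probe sets on Affymetrix mouse genome arrays, with 1 array for each ESC line. The null group held the Zfp281 null ESC lines 7, 3.34 and 3.38, the heterozygous group lines 5 and 3.1, which keep a single intact allele, and the wild-type group lines 3, 3.2 and 3.3. All lines came from blastocyst outgrowths of crosses between heterozygous mice, and in the targeted allele a floxed neomycin resistance cassette stands in place of both exons of Zfp281. After derivation some null alleles carry that cassette and others have lost it. All 8 lines grew in serum and LIF on a layer of mouse embryonic fibroblasts (feeder cells), without further treatment, so each array may also hold feeder RNA. Replicates are separate lines, and the spread within a genotype therefore holds differences between lines together with technical error.

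In mammals, DNA methylation is placed on cytosines of CpG dinucleotides. The new pattern is written in the early embryo by Dnmt3a and Dnmt3b, with Dnmt3l as a cofactor that has no catalytic activity of its own. Dnmt1 copies the pattern at each replication, and Uhrf1 brings Dnmt1 to the half-methylated sites left by the replication fork. The Tet dioxygenases oxidize methylcytosine to hydroxymethylcytosine and further, which opens a route to its removal. Mouse ESCs are known to express both arms of this system.

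Zfp281 binds G-rich DNA, and the windows around the start sites of the members were therefore searched for GGGGAGGGG on both strands (CCCCTCCCC on the other). These runs were chosen after several overlapping G-rich runs had been looked at, so the matches are a description only. Of the 15 RefSeq windows annotated to the 8 members (build GRCm38.p6, 250 bases before to 50 after a start site), 3 held the run. It was found in 2093 of 32851 windows of all genes, which is 6.37%. The 3 windows with the run all belonged to members of the Dnmt3 family, and they are shown without a link to the expression values below. The log2 fold changes of null over wild-type were −1.13 for Dnmt3b, 0.72 for Dnmt3l and 0.13 for Dnmt3a. Tet2, whose window did not hold the run, had 1.17. None of these passed (limma adjusted p = 0.330, 0.557, 0.949 and 0.451), and a relation to the run was not tested. All 3 windows with the run lie on the plus strand, at chr2:153649199-153649498 for Dnmt3b, chr10:78055085-78055384 for Dnmt3l and chr12:3891494-3891793 for Dnmt3a. Capitals mark CCCCTCCCC, and the sequences run 5′ to 3′.
Dnmt3b: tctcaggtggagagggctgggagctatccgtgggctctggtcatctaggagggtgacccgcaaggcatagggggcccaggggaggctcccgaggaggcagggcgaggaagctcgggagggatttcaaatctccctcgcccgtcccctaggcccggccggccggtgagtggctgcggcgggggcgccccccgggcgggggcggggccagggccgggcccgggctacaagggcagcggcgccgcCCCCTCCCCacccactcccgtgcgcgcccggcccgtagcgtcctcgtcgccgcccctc
Dnmt3l: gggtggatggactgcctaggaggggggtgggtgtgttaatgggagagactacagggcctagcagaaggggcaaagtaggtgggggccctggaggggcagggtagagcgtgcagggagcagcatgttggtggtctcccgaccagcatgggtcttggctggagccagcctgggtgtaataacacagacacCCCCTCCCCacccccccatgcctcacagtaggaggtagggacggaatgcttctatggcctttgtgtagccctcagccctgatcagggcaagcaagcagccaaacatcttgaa
Dnmt3a: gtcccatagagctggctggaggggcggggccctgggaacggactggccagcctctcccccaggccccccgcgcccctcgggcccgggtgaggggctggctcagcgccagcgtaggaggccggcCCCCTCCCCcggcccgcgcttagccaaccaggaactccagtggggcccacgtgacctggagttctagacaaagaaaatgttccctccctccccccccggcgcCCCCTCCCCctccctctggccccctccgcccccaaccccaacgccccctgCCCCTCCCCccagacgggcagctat
The run began at −8 from the start site and ran across it in Dnmt3b, began at −62 in Dnmt3l, and began at −127, −25 and 25 in Dnmt3a. Dnmt3a and Dnmt3l each have further annotated start sites whose windows do not hold it. No binding was measured on these arrays.

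The arrays gave a few facts that bear on all values below. Zfp281 itself, the targeted gene, had log2 values of 3.64, 5.06 and 5.23 in null lines 7, 3.34 and 3.38, 6.69 and 6.97 in the heterozygous lines 5 and 3.1, and 6.88, 7.93 and 6.72 in wild-type lines 3, 3.2 and 3.3. Null ESCs had less of it than wild-type ESCs, with a log2 fold change of −2.54 ± 0.45 (SE, limma adjusted p = 0.0467). Every null line lay below every other line, although the probe set was still called present in null lines 3.34 and 3.38. The heterozygous and wild-type lines overlapped, with a log2 fold change of heterozygous over wild-type of −0.35 ± 0.50 (SE, limma adjusted p = 0.997). Of 10 ESC markers, 9 were called present in every line, and 1 (Dppa5a, log2 fold change 1.23) passed between null and wild-type ESCs. The signal summed over the 10 was 12946 to 14692 in null, 11005 to 12554 in heterozygous and 6916 to 10006 in wild-type lines. That sum is on the linear scale and is weighted to bright markers such as Dppa5a, with log2 values of 11.99 to 13.54. In the mean 8 of the 10 were higher in null than in wild-type lines and 2 were lower (median log2 fold change 0.54). Of 17 measured feeder fibroblast markers, 10 were called present on all arrays and 1 on none, 0 passed between null and wild-type ESCs although 14 were lower in the mean (median log2 fold change −0.48), and their summed signal was 1990.5 to 2198 in null, 4038 to 5178 in heterozygous and 2478 to 3428 in wild-type lines. The end difference, which is the log2 value of the Gapdh and beta-actin controls at the 3′ end minus that at the 5′ end and grows as RNA is shorter, was 3.30 ± 0.55 in null (SD, n = 3), 4.64 ± 0.22 in heterozygous (n = 2) and 4.61 ± 0.34 in wild-type lines (n = 3). Of all probe sets, 28.4% were called present in heterozygous line 3.1 and 30.4% in wild-type line 3.2, against 32.3% to 35.3% in the other lines. Feeder marker signal, RNA quality and detection thus moved with genotype or line, and except where a fit below includes them, their part in the results was not tested. The end difference of null lines (2.68 to 3.71) did not overlap that of heterozygous (4.49 to 4.80) or wild-type lines (4.23 to 4.86). A fit with it as a covariate therefore cannot tell it apart from genotype.

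No member changed past the threshold between Zfp281 null and wild-type ESCs when all 8 lines were used. In the limma fit over 18193 genes, 206 genes (1.13%) passed an adjusted p under 0.05, and of the 8 members 0 passed, with 0 also at an unadjusted p under 0.05, where 2980 genes (16.4%) lay. The member with the smallest p was Dnmt3b, which was on average 2.19-fold lower in null lines (adjusted p = 0.330). Beyond 2-fold in the mean lay Dnmt3b on the lower side, where 1.10% of all genes lay, and Tet2 on the higher side, with 1.37% of all genes. The median log2 fold change over the 8 members was 0.29, beside −0.01 over all genes. Because each array may also hold feeder RNA, fewer cells of a type and less RNA per cell cannot be told apart in any of these values.

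**Figure D1:**
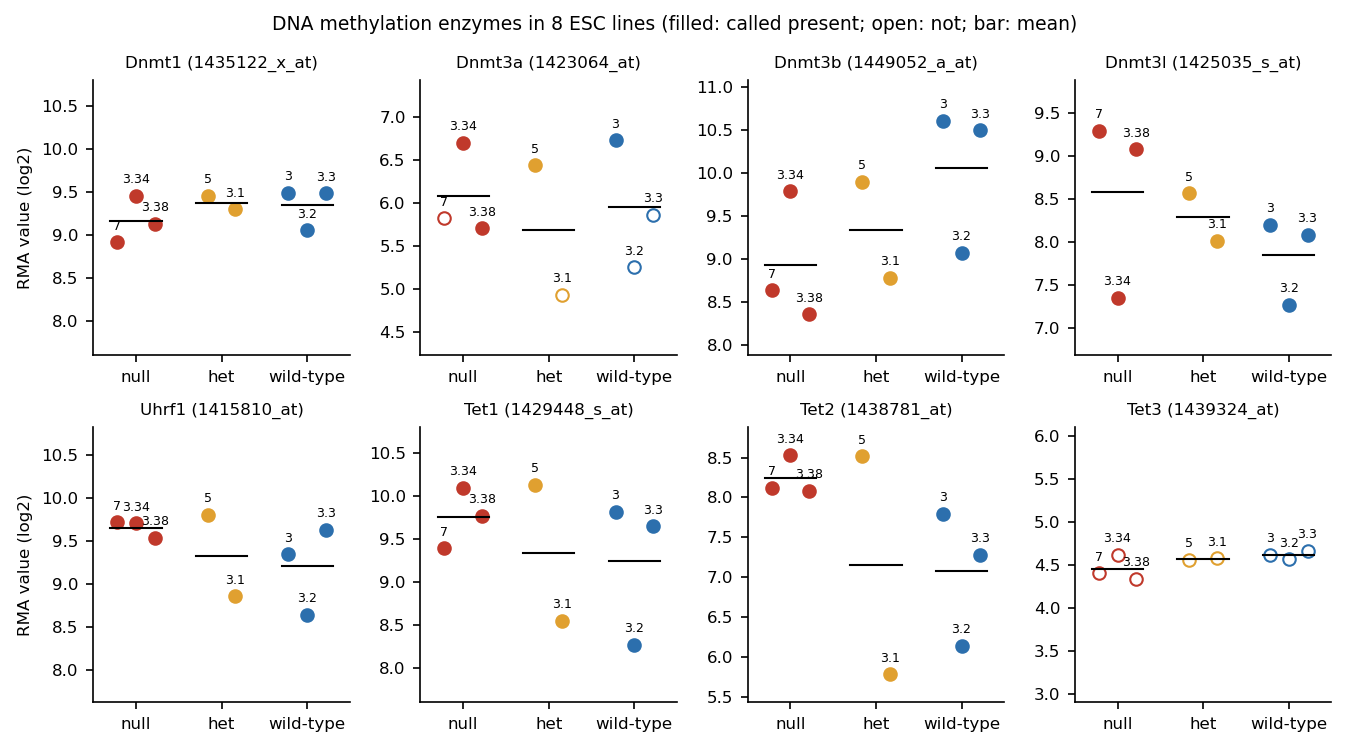
Log2 RMA values of the 8 members in each ESC line, 1 panel per gene with the probe set that represents it, with null, heterozygous (het) and wild-type lines from left to right, the line number above each point, and a bar at the group mean. Open points were not called present, and among these panels only that of Tet2 has all 3 null lines clear of all 3 wild-type lines.

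Dnmt3b, the de novo methyltransferase that is prominent in the early embryo, had log2 values of 8.63, 9.79 and 8.35 in null lines 7, 3.34 and 3.38. The heterozygous lines 5 and 3.1 had 9.90 and 8.78. The wild-type lines 3, 3.2 and 3.3 had 10.60, 9.07 and 10.49. Null lines 7 and 3.38 lay below every other line, whereas null line 3.34 lay above wild-type line 3.2, so that the genotypes overlapped. The mean was 8.92 ± 0.76 in null (SD, n = 3), 9.34 ± 0.79 in heterozygous (n = 2) and 10.06 ± 0.85 in wild-type ESCs (n = 3). Neighbouring genotypes in this order did not differ beyond their spread. The null minus wild-type log2 fold change was −1.13 ± 0.51 (SE; 95% interval −2.31 to 0.05). With 1 null or wild-type line left out it lay between −0.85 (without null line 3.38, limma adjusted p = 0.556) and −1.62 (without wild-type line 3.2, adjusted p = 0.195), and as the mean over both probe sets it was −0.70. The other Dnmt3b probe set, 1418351_a_at, was dim and differed less, with log2 values of 4.41, 5.15 and 4.20 in null ESCs, 4.69 and 4.63 in heterozygous ESCs, and 5.27, 4.40 and 4.89 in wild-type ESCs. Its log2 fold change of null over wild-type was −0.27 ± 0.28 (SE).

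Dnmt3l, the catalytically inactive partner of Dnmt3a and Dnmt3b, gave log2 values of 9.29, 7.35 and 9.08 in null lines 7, 3.34 and 3.38. It gave 8.56 and 8.01 in the heterozygous lines 5 and 3.1. It gave 8.20, 7.27 and 8.08 in wild-type lines 3, 3.2 and 3.3. Null lines 7 and 3.38 were the highest of all 8 lines, and null line 3.34 stood with wild-type line 3.2 at the bottom. The mean was 8.57 ± 1.06 in null, 8.29 ± 0.39 in heterozygous and 7.85 ± 0.51 in wild-type ESCs (SD), a log2 fold change of null over wild-type of 0.72 ± 0.49 (SE, limma adjusted p = 0.557). With null line 3.34 left out it was 1.33 (adjusted p = 0.0850), and with null line 7 left out 0.36 (adjusted p = 0.887). With the end difference as a covariate the sign turned, to −0.79 (limma adjusted p = 0.9999), in a fit that cannot tell the end difference apart from genotype.

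The same null lines thus stood apart for both genes. Lines 7 and 3.38 combined the lowest Dnmt3b values of the series with the highest Dnmt3l values, whereas line 3.34 had a Dnmt3b value within the range of the heterozygous lines and a Dnmt3l value below both of them.

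**Figure D2:**
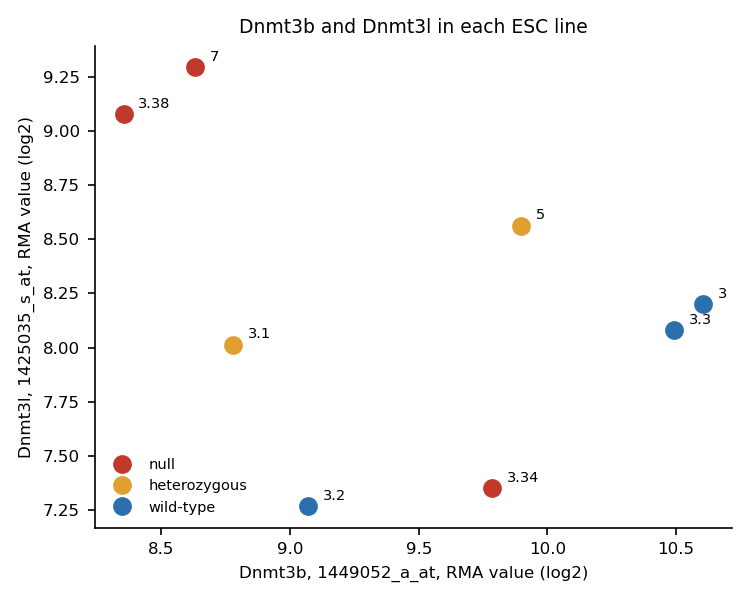
Log2 RMA value of Dnmt3l (vertical axis) against that of Dnmt3b (horizontal axis), 1 point for each ESC line, coloured by genotype and named by line. Null lines 7 and 3.38 sit alone at the upper left, with Dnmt3b at 8.63 and 8.35 and Dnmt3l at 9.29 and 9.08, and null line 3.34 sits at the lower right with 9.79 and 7.35.

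Lines 7 and 3.38 are also the null lines with a wild-type partner from the same litter, lines 3 and 3.3. A limma fit on these 4 lines with the litter as a block gave a log2 fold change of −2.06 for Dnmt3b (adjusted p = 0.0363) and of 1.04 for Dnmt3l (adjusted p = 0.0488), so that 2 members passed where 0 did over all lines. In that fit 178 of 18193 genes passed, which is 0.978%. The same 4 lines without the litter term gave the same fold changes with adjusted p = 0.0230 for Dnmt3b and 0.0408 for Dnmt3l, beside 198 genes passed in all (1.09%). These fits leave out null line 3.34 and wild-type line 3.2. The genotypes overlapped through these lines for Dnmt3b, and through null line 3.34 for Dnmt3l. The calls therefore hold for the 4 fitted lines only, and 4 arrays leave few residual degrees of freedom for each gene. Their adjusted p values thus lean on the spread that limma shares over all genes.

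Dnmt3a, the other de novo enzyme, was read by 5 probe sets that did not give a single picture. The probe set with the highest mean, 1423064_at, had log2 values of 5.82, 6.69 and 5.70 in null lines 7, 3.34 and 3.38, 6.43 and 4.93 in the heterozygous lines, and 6.72, 5.25 and 5.86 in wild-type lines, and was called present in 4 of the 8. Here the genotypes overlapped fully, with a log2 fold change of null over wild-type of 0.13 ± 0.48 (SE, limma adjusted p = 0.949). Probe set 1423066_at had the same order of lines at its top and differed by −0.02.

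The other 3 Dnmt3a probe sets were lower in every null line than in every wild-type line. On 1460324_at the log2 values were 3.53, 3.87 and 3.86 in null lines 7, 3.34 and 3.38, 4.08 and 4.13 in the heterozygous lines 5 and 3.1, and 4.74, 4.84 and 4.38 in wild-type lines 3, 3.2 and 3.3. The heterozygous lines lay between the null and the wild-type lines without overlap on either side. The log2 fold change of null over wild-type was −0.90 ± 0.15 (SE), with an adjusted p of 0.04995 over all 45037 probe sets in limma. It was the single member probe set of 20 to pass, in a comparison where 0.520% of all probe sets passed. The probe set was dim, being called present in null line 3.34 and wild-type line 3 and in no other line. The null call is at the edge of the threshold: of the 8 fits that left out a line, the one without wild-type line 3.3 kept it (adjusted p = 0.0317) and the other 7 gave adjusted p between 0.0644 and 0.195, with log2 fold changes between −0.79 and −0.95. In the litter block the adjusted p was 0.145, and with the end difference as a covariate the log2 fold change was −0.35.

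On 1423063_at the log2 values were 4.50, 4.40 and 4.17 in null lines 7, 3.34 and 3.38, 4.71 and 4.80 in the heterozygous lines, and 5.01, 5.04 and 4.71 in wild-type lines, with a present call in all 8. Every null line was below every line of the other genotypes. The log2 fold change of null over wild-type was −0.56 ± 0.13 (SE) and did not pass (adjusted p = 0.0905), and it stayed between −0.47 and −0.67 in all 8 fits that left out a line. On 1423065_at, also present in all 8, null lines had 4.55, 5.13 and 4.85, heterozygous lines 5.11 and 5.05, and wild-type lines 5.71, 5.20 and 5.22, and the log2 fold change of null over wild-type was −0.53 ± 0.18 (SE, adjusted p = 0.237). All 5 probe sets carry the same source accession in the annotation, and which part of the transcript each one covers was not examined here. Averaged over the 5, the Dnmt3a log2 fold change was −0.38, so the direction given for the gene depends on which probe set stands for it.

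**Figure D3:**
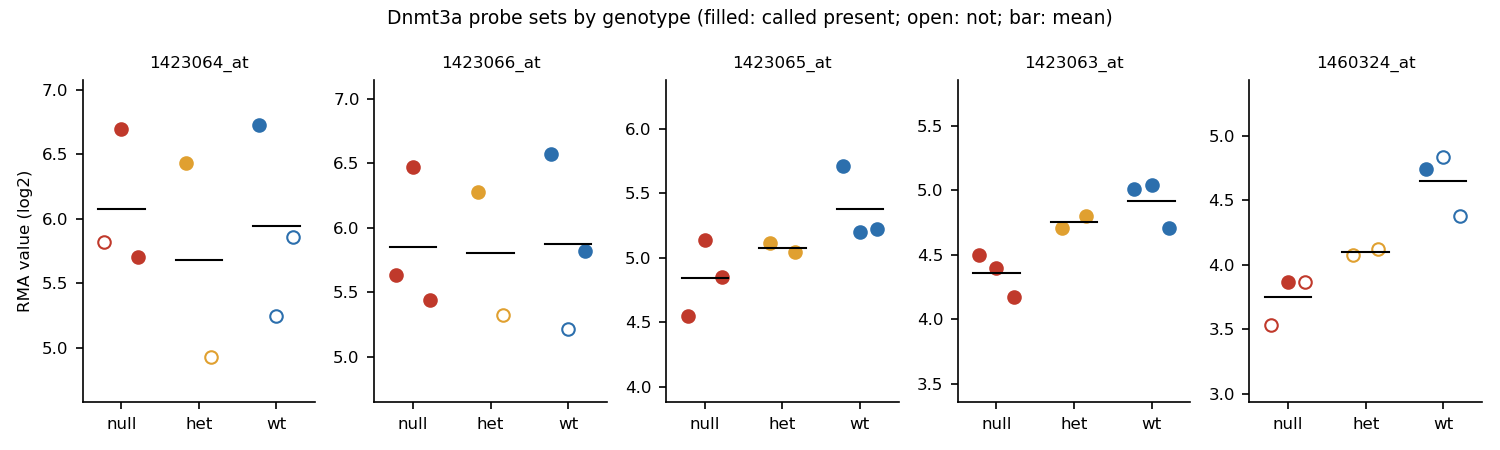
Log2 RMA values of the 5 Dnmt3a probe sets, 1 panel each, for null, heterozygous (het) and wild-type (wt) lines from left to right, with a bar at each mean and open points where the probe set was not called present. The genotypes overlap in the 2 panels at the left, and all 3 null points lie below all 3 wild-type points in the other 3 panels.

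Of the maintenance pair, Dnmt1, which restores methylation after replication, had log2 values of 8.92, 9.46 and 9.13 in null lines 7, 3.34 and 3.38, 9.46 and 9.30 in the heterozygous lines, and 9.49, 9.06 and 9.49 in wild-type lines. From lowest to highest these span 0.57 log2 units, and the log2 fold change of null over wild-type was −0.18 ± 0.17 (SE; 95% interval −0.58 to 0.22; limma adjusted p = 0.726). The other Dnmt1 probe sets differed by 0.03 (1422946_a_at) and −0.25 (1447877_x_at). On 1447877_x_at every null line was below both heterozygous lines, by −0.37 in the mean (adjusted p = 0.451).

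Uhrf1, the factor that guides Dnmt1, had log2 values of 9.73, 9.71 and 9.54 in null lines 7, 3.34 and 3.38. It had 9.81 and 8.86 in the heterozygous lines 5 and 3.1. It had 9.35, 8.65 and 9.63 in wild-type lines 3, 3.2 and 3.3. The null lines were close together (SD 0.10) whereas the heterozygous lines (SD 0.67) and wild-type lines (SD 0.51) were not, and the low values were those of lines 3.1 and 3.2. The log2 fold change of null over wild-type was 0.45 ± 0.29 (SE, limma adjusted p = 0.538). On the second probe set, 1415811_at, every null line (5.73, 5.57 and 5.49) was above every heterozygous line (5.08 and 4.07) and every wild-type line (5.13, 4.29 and 5.27). The log2 difference there was 0.70 ± 0.31 (SE) from wild-type and 1.02 from heterozygous ESCs, with adjusted p of 0.380 and 0.271.

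Among the Tet enzymes, Tet1, which is highly expressed in ESCs, had log2 values of 9.39, 10.09 and 9.77 in null lines 7, 3.34 and 3.38. It had 10.13 and 8.55 in the heterozygous lines 5 and 3.1. It had 9.81, 8.27 and 9.65 in wild-type lines 3, 3.2 and 3.3. Apart from the low values of lines 3.1 and 3.2 the genotypes covered the same range. The log2 fold change of null over wild-type was 0.51 ± 0.49 (SE, limma adjusted p = 0.718) and dropped to 0.02 without lines 3.1 and 3.2. On 1455425_at the null lines, at 8.18, 8.83 and 8.13, were all above the wild-type lines, at 8.01, 6.18 and 7.83, by a log2 fold change of 1.04 ± 0.54 (SE, adjusted p = 0.479), with heterozygous lines at 8.44 and 6.89. Probe set 1419896_at differed by 0.29, and 1419897_at was called absent on all 8 arrays, which leaves it without a fold change.

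Tet2, the second dioxygenase present in ESCs, was the only member whose representing probe set was higher in every null line than in every wild-type line. Its log2 values were 8.12, 8.53 and 8.08 in null lines 7, 3.34 and 3.38, 8.52 and 5.78 in the heterozygous lines 5 and 3.1, and 7.79, 6.14 and 7.28 in wild-type lines 3, 3.2 and 3.3. The wild-type line nearest to the null lines, line 3, lay 0.29 below the lowest of them, and heterozygous line 5 lay among them. Over all genes the lines were separated in the higher direction for 11.1%, so 1 of 8 members is close to that background. The log2 fold change of null over wild-type was 1.17 ± 0.65 (SE; 95% interval −0.33 to 2.67; limma adjusted p = 0.451), and it was 0.71 without wild-type line 3.2 (adjusted p = 0.799). The second Tet2 probe set, 1455300_at, was also higher in every null line, at 6.62, 6.19 and 6.50, than in every wild-type line, at 6.05, 5.65 and 5.40, with heterozygous lines at 6.76 and 5.43 and a log2 fold change of 0.73 ± 0.32 (SE, adjusted p = 0.370).

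Tet3, the family member of the oocyte and zygote, was called absent on all 8 arrays, with log2 values between 4.33 and 4.66. Its level was not detectable in any genotype on this probe set, and it is given no fold change.

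Over all 20 probe sets of the members, 12 were called present on all arrays, 6 on some and 2 on none. Null and wild-type lines did not overlap on 7 of the 20, with 4 higher in null lines (Tet1, Tet2 on both of its probe sets, and Uhrf1) and 3 lower (all Dnmt3a). Among all probe sets 9.10% were separated in the higher and 10.5% in the lower direction. The share among the members was thus 35.0% against 19.6% of all probe sets, but probe sets of a gene share their RNA and are not independent of each other.

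**Figure D4:**
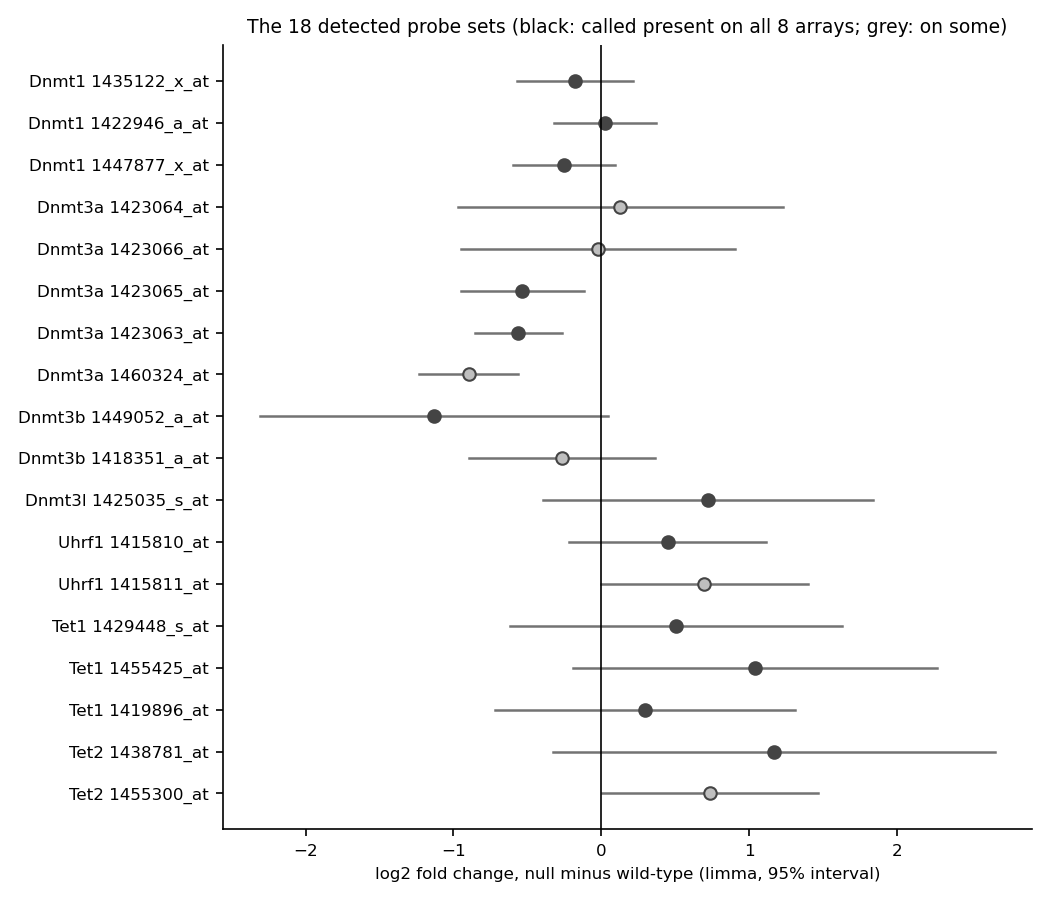
Log2 fold change of null over wild-type ESCs (points) with the 95% interval from limma (bars) for the 18 member probe sets called present on at least 1 array, with black points for those present on all 8 arrays and grey for some. Dnmt3a probe sets 1423065_at, 1423063_at and 1460324_at lie left of 0 with their whole interval, and Tet2 probe set 1455300_at lies right of 0 (0.0063 to 1.46). The intervals are not adjusted for the number of probe sets, and of these only 1460324_at passed an adjusted p under 0.05. Among all genes 16.4% had an unadjusted p under 0.05 in limma.

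The heterozygous lines showed no member apart from either other genotype in the tests. Between heterozygous and wild-type ESCs 0 of 8 members passed (smallest adjusted p = 0.997) and 0 had an unadjusted p under 0.05, where 0% of all genes passed in limma and 701 genes (3.85%) had an unadjusted p under 0.05. Between null and heterozygous ESCs 0 of 8 members passed (smallest adjusted p = 0.589) and 0 had an unadjusted p under 0.05, again with 0% of all genes passing and 2512 (13.8%) at an unadjusted p under 0.05. Heterozygous and wild-type lines were separated on 2 of the 20 probe sets, Dnmt3a 1460324_at and 1423065_at, both lower in heterozygous lines, where 9.46% of all probe sets lay in that direction. Null lines were separated from heterozygous lines on 3 probe sets in the lower direction, Dnmt3a 1460324_at and 1423063_at and Dnmt1 1447877_x_at (13.3% of all probe sets), and on 1 in the higher direction, Uhrf1 1415811_at (12.2%). With 2 heterozygous lines that often lay at opposite ends, as for Tet2 at 8.52 and 5.78, the intervals were wide, and the Tet2 log2 difference of heterozygous over wild-type was 0.08 with a 95% interval of −1.60 to 1.75.

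On part of the member probe sets the lowest values belonged to a pair of lines of different genotype. Heterozygous line 3.1 and wild-type line 3.2 held the lowest values of the 8 lines on 8 of the 20 member probe sets (40.0%), which were both Uhrf1 probe sets, 3 of the 4 of Tet1, 1 of the 2 of Tet2 and 2 of the 5 of Dnmt3a. Among all probe sets the same was true for 7.59%. The lines were picked for this count after their values had been seen, and it is given as a description. They are also the lines with the smallest shares of probe sets called present, at 28.4% and 30.4%. With both lines left out, 0 of 8 members passed between null and wild-type ESCs, and the log2 fold changes were −1.62 for Dnmt3b, 0.43 for Dnmt3l, 0.17 for Uhrf1, 0.02 for Tet1 and 0.71 for Tet2.

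Over the 8 arrays, the profiles most like that of Dnmt3b among 5290 other genes called present on every array were those of Mthfd1l (Pearson r = 0.95), Lgr4 (0.95) and Stx4a (0.94). Their own log2 fold changes of null over wild-type were −0.31, −0.49 and −0.60, and none passed (limma adjusted p 0.487, 0.265 and 0.143). For Tet1, the member with the highest mean, they were Gins1 (0.97), Tfrc (0.96) and Syce2 (0.96), whose log2 fold changes were 0.19, 0.48 and 0.29 (adjusted p 0.770, 0.649 and 0.690). The points of these correlations are the same 8 lines, and any quality that moves all genes of an array is shared by them.

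The genes around the members were read from 5 lists of partners, guides, readers, the removal pathway and methyl donor supply and turnover. Between null and wild-type ESCs 2 of their 62 measured genes passed, Smchd1 and Zfp57, beside 1.13% of all genes. Of 17 measured partners of the methyltransferases 1 fell and 16 did not pass, with a median log2 fold change of 0.15. In the mean 9 were higher and 8 lower in null lines. The largest difference was that of Ehmt2, at 2.00 ± 0.39 (SE, limma adjusted p = 0.0528), which was not called present in wild-type lines 3 and 3.2. Smchd1, a chromosome structural protein needed for methylation of CpG islands on the inactive X, had log2 values of 5.79, 6.10 and 6.40 in null lines 7, 3.34 and 3.38, 6.86 and 6.78 in the heterozygous lines, and 7.11, 7.14 and 6.82 in wild-type lines. All null lines were below all others, at −0.93 ± 0.17 from wild-type (SE, limma adjusted p = 0.0467). The call ended when any single line other than null line 3.38 was left out, with adjusted p between 0.0508 and 0.168, and in the litter block (adjusted p = 0.156). The fold change itself was −0.39 with the end difference as a covariate and −0.56 as the mean over probe sets, where the adjusted p was 0.0464.

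Of 10 genes that protect or guide methylation at chosen loci 1 rose and 9 did not pass, with a median log2 fold change of 0.18. Zfp57, the zinc finger protein that keeps methylation at imprinting control regions, had log2 values of 7.37, 7.65 and 7.55 in null lines 7, 3.34 and 3.38, 6.63 and 5.78 in the heterozygous lines, and 6.28, 5.66 and 6.15 in wild-type lines. The null lines stood clear of the others by 0.74, and the log2 fold change of null over wild-type was 1.49 ± 0.24 (SE, limma adjusted p = 0.0388). It was between 1.30 and 1.61 in all 8 fits that left out a line, but without any single null or wild-type line the adjusted p lay between 0.0535 and 0.138, above the threshold of 0.05.

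Of 7 measured readers of methylated DNA 0 passed (median −0.07). Mbd1, a methyl-CpG binding repressor, had the largest difference, at 5.28, 4.81 and 5.31 in null ESCs, 6.05 and 6.62 in heterozygous ESCs and 5.70, 6.67 and 5.59 in wild-type lines, a log2 fold change of null over wild-type of −0.85 (limma adjusted p = 0.197). It was −0.51 without wild-type line 3.2, −0.35 on the litter pairs and −0.16 as the mean over its probe sets. Zbtb33, which encodes Kaiso, differed by −0.45 and Zbtb38 by 0.16, and the probe set of Mbd3 was called absent on all 8 arrays. Of 16 measured Tet partners and base excision repair genes 0 passed (median 0.03). The smallest p values there belonged to Gadd45a (log2 fold change of null over wild-type 0.56, adjusted p = 0.0895), a stress gene linked to demethylation through repair, Idh2 (0.95, adjusted p = 0.139), a mitochondrial isocitrate dehydrogenase that makes the Tet co-substrate α-ketoglutarate, and the repair genes Xrcc1 (0.56) and Lig3 (−0.31). The mean over the Idh2 probe sets differed by 0.0026 (limma adjusted p = 0.997). Of 12 measured genes around the supply and turnover of S-adenosylmethionine, the methyl donor, 0 passed (median 0.07) and 4 were called present on no array. Shmt2, which feeds mitochondrial serine into the folate cycle, differed by 0.81 (adjusted p = 0.101), Ahcy, which clears the product of methylation, by 0.64 and Mtrr by −0.26, and the probe set that represents Tyms was called absent on all 8 arrays. In the heterozygous against wild-type and the null against heterozygous comparisons 0 genes of these 5 lists passed.

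**Figure D5:**
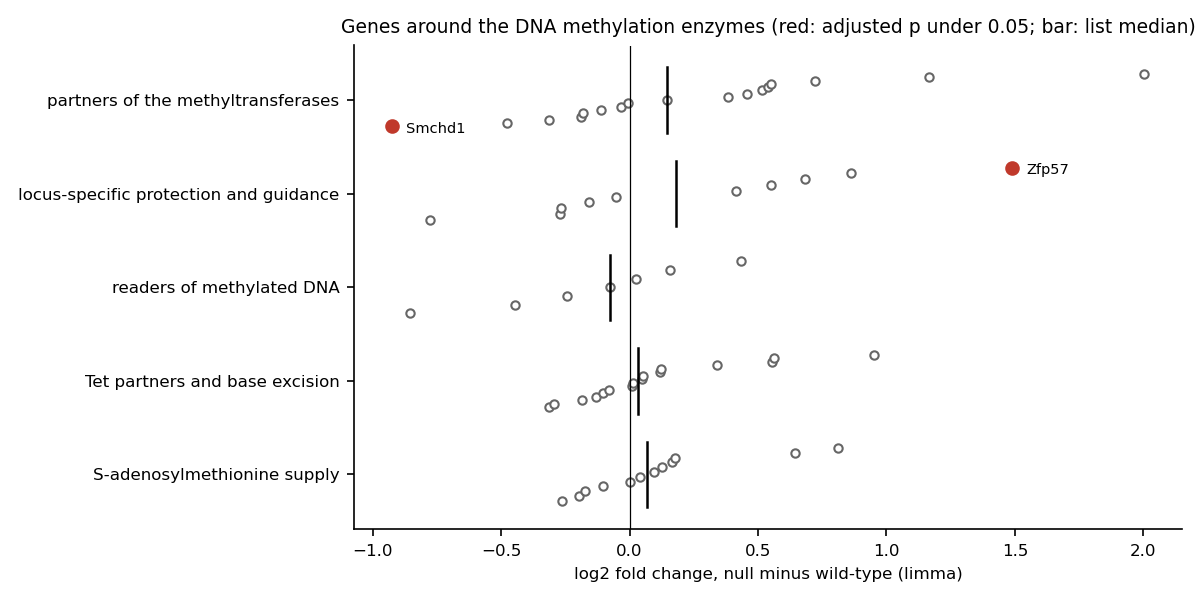
Log2 fold change of null over wild-type ESCs (horizontal axis) for each measured gene of the 5 lists around the members, 1 row per list, with a bar at the list median and red points for an adjusted p under 0.05 in limma. The medians lie between −0.07 and 0.18, and Smchd1 (−0.93) and Zfp57 (1.49) are the red points.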

How the data were processed

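RNA of 8 ESC lines was hybridized to 1 Affymetrix mouse genome array each. The authors ran RMA over the arrays and deposited log2 values per probe set. They also deposited, for each array, the linear signal intensity of each probe set with the detection call and detection p-value of the Affymetrix software. The submitters' processing notes name RMA and limma without versions. Of the log2 columns, 8 of 8 matched best the signals of the array they are labelled for. The number of arrays limits the precision.

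Of 45101 probe sets, 64 controls were left out, and 34945 had 1 gene in the platform annotation, which gave 18193 genes, each read from the probe set whose mean over all arrays was highest. Groups came from the sample labels. limma 3.58.1 (R 4.3.3; lmFit and eBayes) was fitted with genotype means over all 8 arrays, with Benjamini-Hochberg adjustment over all genes, and separately over all 45037 probe sets for the values of single probe sets. The fit was tested on simulated data. No fold change is given for a member with no present call on any array. The members and lists were chosen with earlier results of these data known. Named genes are the members, Zfp281, from each list every gene with an adjusted p under 0.05 or else the 4 with the smallest p, and the 3 profiles most like that of each of 2 members. Ehmt2 is also named, as the largest difference in the lists. Some genes of the lists are not analysed here, and counts are over the measured genes. The litter pairs (null 7 with wild-type 3, null 3.38 with wild-type 3.3) come from a legend of the study, and over 18193 genes the differences between null lines 7 and 3.38 and between wild-type lines 3 and 3.3 had a correlation of 0.05. Alternatives were the omission of each line, the mean over probe sets, a detection filter, quantile normalization, signal values (log2 of signal + 16), the arrays of the 2 genotypes compared, the 3′ minus 5′ control difference (end difference) as covariate and the litter block. The same 4 lines without the litter term, the omission of lines 3.1 and 3.2 and all fits on single probe sets were added after seeing the data. Promoter sequences are from RefSeq (GRCm38.p6).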

Additional observations from a re-analysis of the deposited data

How the results depend on the processing

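With the alternatives tried, 0 of 8 members passed in every comparison except null against wild-type on the litter pairs, where 2 passed with the litter as a replicate block and 2 without it (Dnmt3b and Dnmt3l), beside 178 and 198 of all genes. The block changed no other member's call. The detection filter did not test Dnmt3a and Tet3, whose representing probe sets were not called present in every line of any genotype. The number of member probe sets that passed was 1 over all arrays and 0 to 1 when a line was left out. On the litter pairs it was 1 with the litter block (limma adjusted p = 0.0423), beside 119 of all probe sets. Without the litter term it was 2, beside 285 of all probe sets. The call over all arrays was that of Dnmt3a 1460324_at. On the litter pairs this probe set did not pass (limma adjusted p = 0.145 with the block and 0.109 without). The calls there thus belonged to other member probe sets. The number was 0 with the detection filter, quantile normalization, signal values, the arrays of the 2 genotypes, the end difference as covariate, or without lines 3.1 and 3.2. Of 326 refitted log2 fold changes of the 7 members called present on any array, 282 kept their direction and their side of the threshold. Of the rest, 40 turned their sign and 4 newly passed, and the cause was not tested. Leaving out a line of the genotype not compared, the arrays of the 2 genotypes and the detection filter cannot move a fold change, only its adjusted p. Part of the 282 thus kept their direction by design, and the count overstates how stable the directions are.

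For null over wild-type, the log2 fold change of Dnmt3a was −0.22 to 0.52 when a line was left out, −0.38 as the mean over probe sets, −0.53 on the litter pairs with or without the block, and −0.22 without lines 3.1 and 3.2. Tet1 was −0.15 on the litter pairs with or without the block. The end difference as covariate gave 0.10 for Dnmt1, −0.79 for Dnmt3l, −0.15 for Uhrf1, 0.084 for Dnmt3a probe set 1423065_at, −0.37 for Idh2 and −0.24 for Ahcy. That covariate cannot be told apart from genotype in these lines, and the smallest adjusted p of a member with it was 0.9999 in limma.

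For heterozygous over wild-type, leaving out a line gave −0.11 to 0.11 for Dnmt1, −1.02 to 0.49 for Dnmt3a, −0.35 to 0.60 for Uhrf1, −0.70 to 0.88 for Tet1 and −1.29 to 1.45 for Tet2. Without lines 3.1 and 3.2 Dnmt1 was −0.032 and Dnmt3a 0.14, and the mean over probe sets gave −0.10 for Uhrf1. For null over heterozygous, leaving out a line gave −0.36 to 1.14 for Dnmt3a, −0.97 to 0.14 for Dnmt3b, −0.074 to 0.90 for Dnmt3l, −0.15 to 0.80 for Uhrf1, −0.38 to 1.21 for Tet1 and −0.28 to 2.46 for Tet2. Without lines 3.1 and 3.2 Dnmt3a was −0.36, Uhrf1 −0.15, Tet1 −0.38 and Tet2 −0.28. The mean over probe sets gave −0.11 for Dnmt3a, signal values −0.18 for Uhrf1 and −0.073 for Tet1, and the covariate 0.072 for Dnmt1, −1.26 for Dnmt3l and −0.28 for Uhrf1.

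Over all genes, the 206 calls between null and wild-type became 442 with the detection filter, 2 with signal values, 0 with the covariate, 5 without lines 3.1 and 3.2, and 3, 2 and 4 without null line 7, wild-type line 3 and wild-type line 3.2. The 234 calls over all probe sets became 831 with the filter, which tested fewer probe sets. They became 5 with signal values, 0 with the covariate and 5 without lines 3.1 and 3.2. Without null line 7 and wild-type lines 3, 3.2 and 3.3 they became 7, 4, 6 and 385. They became 44 without either heterozygous line or with the arrays of the 2 genotypes, and 119 with the litter block. Smchd1 lost its call in 13 of 17 alternatives and Zfp57 in 9 of 17. Arrays limit these comparisons by their number, 3 against 3 and 2, and dim probe sets such as Dnmt3a 1460324_at sit near background.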
